A study of Mus musculus with 3 samples.

Results

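Alveolar type 2 cells with high Fos were 786 of the 7131 cells that passed an alveolar type 2 gate in 2 single-cell libraries of mouse lung, and 786 of the 13629 barcodes kept in those libraries. The HER2-negative library of the series brought the kept barcodes to 19899, and its 7 Fos-high cells are not among the 786. The gate asked for at least 1000 UMIs (unique molecular identifiers, 1 per captured RNA molecule), at least 200 genes, under 25% mitochondrial UMIs, at least 10% of UMIs from the surfactant gene Sftpc, at least 1 UMI of Slc34a2 or Lamp3, and none of Pecam1, Cdh5, Pdgfrb and Col1a2. Fos-high cells held at least 8 Fos UMIs per 10000, and cells of the same gate with under 2 per 10000 are called Fos-low. The Fos counts chose the cells, so every difference between Fos-high and Fos-low cells below is a description and has no test.

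All mice were MMTV-HER2/Neu animals on the FvB background, in which a mammary tumour virus promoter drives the HER2/Neu oncogene. Lungs were digested, and CD45- HER2+ cells, which the submitters call cancer cells, and CD45- HER2- cells were sorted and encapsulated with the 10X Chromium 3' v3 kit. The late library held HER2+ cells from mice over 20 weeks old with primary tumours, the early library HER2+ cells from mice of 14 to 18 weeks with no palpable tumour, and the HER2-negative library non-cancer cells from mice of that same younger age. Each group was 1 library, the number of animals behind it is not given in the sources used here, and intervals below are 95% exact intervals that cover counting error only. The 2 HER2+ libraries shared 10 kept barcodes, 3 in the gate and 0 among Fos-high cells.

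Fos pairs with Jun family proteins to form AP-1, a transcription factor that binds DNA as a dimer. Fos, Egr1, Atf3 and other early response genes are switched on within minutes by growth factors, calcium, stretch and stress without new protein synthesis, and their RNAs are short-lived. Enzymatic digestion of tissue is also known to switch such genes on, and lungs of all groups were digested. Its part in the levels below was not tested. Alveolar type 2 cells make surfactant, store it in lamellar bodies and renew the alveolar surface by giving rise to alveolar type 1 cells.

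The 250 bases before the annotated start are shown for Fos, which chose the cells, and for 4 genes described below whose levels were higher with it. Capitals mark TGACG or its complement CGTCA, the core of the cyclic AMP response element (CRE), the full CRE TGACGTCA, and in Zfp36 a CArG box, the site of serum response factor. The sequences are RefSeq's, on build GRCm38.p6, written 5′ to 3′ on the gene's strand.
Fos, chr12:85473640-85473889, plus strand: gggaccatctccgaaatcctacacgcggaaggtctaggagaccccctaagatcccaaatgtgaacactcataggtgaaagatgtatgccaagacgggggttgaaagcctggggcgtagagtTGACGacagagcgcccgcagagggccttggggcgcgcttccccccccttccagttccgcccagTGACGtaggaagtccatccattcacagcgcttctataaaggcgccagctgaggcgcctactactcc
Dusp1, chr17:26508473-26508722, minus strand: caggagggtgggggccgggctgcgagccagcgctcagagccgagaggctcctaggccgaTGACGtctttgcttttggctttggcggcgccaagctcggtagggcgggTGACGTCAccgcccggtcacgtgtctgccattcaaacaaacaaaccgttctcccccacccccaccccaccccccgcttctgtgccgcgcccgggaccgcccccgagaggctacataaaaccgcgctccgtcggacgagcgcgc
Btg2, chr1:134079156-134079405, minus strand: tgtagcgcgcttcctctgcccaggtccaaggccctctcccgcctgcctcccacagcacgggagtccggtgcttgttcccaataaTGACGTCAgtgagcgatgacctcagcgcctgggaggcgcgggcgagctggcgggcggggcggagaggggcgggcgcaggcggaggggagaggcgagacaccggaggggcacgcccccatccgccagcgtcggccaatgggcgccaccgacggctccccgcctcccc
Nr4a1, chr15:101266596-101266845, plus strand: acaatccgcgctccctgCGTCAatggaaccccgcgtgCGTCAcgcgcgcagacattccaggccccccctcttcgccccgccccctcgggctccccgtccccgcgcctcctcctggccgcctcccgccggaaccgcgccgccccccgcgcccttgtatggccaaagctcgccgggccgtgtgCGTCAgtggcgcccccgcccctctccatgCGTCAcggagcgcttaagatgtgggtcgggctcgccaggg
Zfp36, chr7:28379229-28379478, minus strand: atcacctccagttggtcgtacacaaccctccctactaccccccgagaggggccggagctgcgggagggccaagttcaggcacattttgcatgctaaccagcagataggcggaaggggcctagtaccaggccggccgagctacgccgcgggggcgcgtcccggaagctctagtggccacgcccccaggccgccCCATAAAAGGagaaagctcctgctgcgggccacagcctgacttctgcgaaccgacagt

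Of the 34 genes that passed the naming criteria given below as higher in Fos-high cells of both libraries, 30 had such a RefSeq window. Egr1, Ier2, Trib1 and Gem had none, so the counts do not cover them. TGACG on either strand lay in 14 of the 30 (46.7%), against 28.5% of the 8658 windows of genes in the level table and 17.9% of all 27025 RefSeq windows. The full TGACGTCA, which contains TGACG on both strands, lay in 5 (Btg2, Dusp1, Ccnl1, Ppp1r15a and Tra2a; 16.7%), against 2.95% and 1.62%. A CArG box lay in 1 of 30 (3.33%), against 1.13% and 1.4%. The AP-1 site TGANTCA was in 0 of 30, against 4.02% and 6.87%. The heat shock element GAANNTTC lay in 4 of 30 (13.3%), against 4.92% and 6.78%. The TATA box TATAAA lay in 2 of 30 (6.67%), against 3.52% and 8.12%. Both strands were searched for each motif except TATAAA, which was searched on the gene's strand. These counts describe letters in a short window and do not locate a bound factor. Sites further upstream were not searched, so a low count, as for the CArG box, does not show that a gene lacks the site.

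Fos-high cells made up 267 of 3748 gate cells in the late library (7.12%, interval 6.32 to 7.99) and 519 of 3383 in the early library (15.3%, 14.1 to 16.6). Fos-low cells were 2261 and 1834. The remaining 1220 late and 1030 early cells lay in between. The Fos-high share was lower in the late library beyond counting error, but 1 library per group gives no replicate check. Depth was higher in the late library, with a median of 8752.5 UMIs per gate cell, against 6871 in the early library. At 2000 UMIs per cell, averaged over all ways of thinning, Fos reached 2 or more UMIs in 11.4% of 3722 late cells and 18.1% of 3277 early cells. Thinning left out 26 late and 106 early cells under that depth.

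The cut runs through a continuous range. The lowest Fos-high cell held 8.004 Fos UMIs per 10000 in the late library and 8.015 in the early library, and the highest cell below the cut held 7.995 in each. The median Fos-high cell held 10.4 per 10000 in the late library and 12.3 in the early library. Between 8 and 9 per 10000 lay 67 late and 81 early cells, and between 7 and 8 lay 103 and 97. In 3 early cells and 0 late cells the class rested on 1 Fos UMI.

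Cells with this much Fos were not limited to the gate. The same cut took 13.9% of barcodes outside the gate in the late library, 22.8% in the early library and 15.7% in the HER2-negative library. Among cells with at least 2 UMIs of the endothelial genes Pecam1 and Cdh5 it took 6.91%, 10.6% and 9.13% in the same order. Among cells with at least 2 UMIs of the mural gene Pdgfrb it took 8.65%, 22.2% and 19.5%. In each of these sets the late library's share was below the early library's. Cells outside the gate were shallower, with medians of 5156, 3837 and 3165 UMIs.

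Markers of the label were present, some of them asked for by the gate. Sftpc, which the gate used, was a median 21.4% of UMIs in late and 21.8% in early Fos-high cells, against 22.6% and 23.2% in Fos-low cells. Of 9 leukocyte markers, 8 including Ptprc were at 0 in Fos-high cells of both libraries, and the ninth, Lyz2, is also an alveolar type 2 gene. Summed endothelial markers were 18.7 CPM (UMIs of a gene per 1000000 UMIs) in late and 20.5 CPM in early Fos-high cells, against 629 and 1498 CPM in barcodes of 1 to 100 UMIs, which hold mostly free RNA. Summed mammary markers, milk protein genes among them, were 47.9 CPM in late Fos-high cells, against 41.4 CPM in late Fos-low cells, and 0.57 against 0.159 CPM in the early library. Mouse Erbb2, the receptor gene whose product the sort was named for, gave 15.8 CPM in Fos-high and 14.9 CPM in Fos-low cells of the late library, and 19.9 against 17.7 CPM in the early library. In barcodes of 1 to 100 UMIs the mammary markers summed to 3250 CPM late and 71.7 CPM early. The submitters' label of breast cancer cells was thus not matched by mammary markers in these cells. The gate chose cells for alveolar type 2 genes, so this does not bear on the label of the sorted cells as a whole.

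Fos-high and Fos-low cells were of like depth within a library. The median was 8760 UMIs in Fos-high against 8533 in Fos-low cells of the late library, and 6503 against 6806 in the early library. The median mitochondrial share was 7.75% against 6.96% in the late library and 7.63% against 6.88% in the early library. Ribosomal protein genes took 7.42% against 7.44% of UMIs in the late library and 7.07% against 7.15% in the early library. Malat1, a long RNA kept in the nucleus, took 2.30% against 1.55% of UMIs in the late library and 2.85% against 2.06% in the early library. The part of these shares in the differences below was not tested.

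A gene counted as different where its CPM, summed over the cells of a class, differed at least 1.5-fold, with at least 20 counts in all. In the late library 896 of 11181 genes (8.01%) were higher and 689 (6.16%) lower in Fos-high cells. With TMM scaling (trimmed mean of M values) the late split was 655 higher and 846 lower. In the early library 662 of 10879 genes (6.09%) were higher and 467 (4.29%) lower, and with TMM scaling 552 and 549. In both libraries 206 of 10769 genes (1.91%) were higher and 90 (0.836%) lower. Among genes of higher level in either class the split was one-sided. Of 1966 genes at 50 CPM or more in a class of both libraries, 45 (2.29%) were higher and 2 (0.102%) lower in the late library, 59 (3%) were higher and 0 lower in the early library, and 37 (1.88%) were higher in both. The 2 lower ones were Hopx and Lrg1. The level was asked of either class, so a gene could enter only through the class where it was high. Klf4 entered through Fos-high cells (64.1 CPM late, 113 CPM early), as its Fos-low levels were 10.7 and 14.5 CPM. The one-sided split is therefore a description of genes so chosen. Another 140 of the same 10769 genes differed in opposite directions in the 2 libraries, more than the 90 that were lower in both. Of the 140, 0 were at 50 CPM or more in a class of both libraries. Without 2 predicted genes, and Hbegf, for which 1 cell held 11.3% of the late Fos-low counts, 34 of the 37 were left, and 26 of these were on lists of early response, stress, inflammatory or alveolar genes. The other 8 were Timp3, Gem, Ccnl1, Tra2a, Tob1, Hexim1, Ifrd1 and Txnip. The share of the 1966 genes on these lists was not taken, and the lists were chosen with earlier results of these data known. The count of 26 is therefore not read as an excess.

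**Figure D1:**
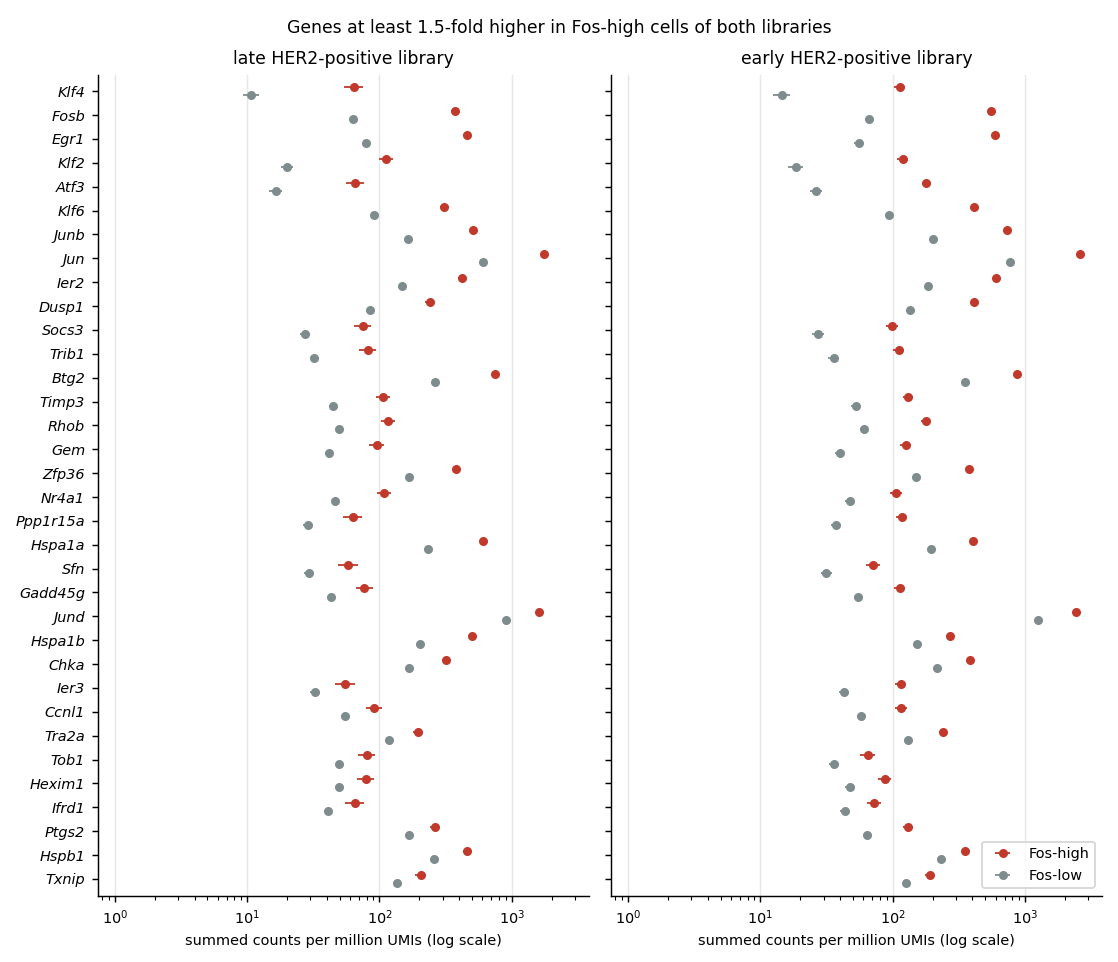
Summed level (CPM, log scale, horizontal) of the 34 genes in Fos-high cells (red) and Fos-low cells (grey), for the late library in the left panel and the early library in the right panel; bars are 95% Poisson intervals, which cover counting error only. Each gene lies to the right in Fos-high cells, which was the criterion for showing it, and the gap is 5.80-fold late and 10.6-fold early for Egr1 against 1.51-fold in both for Txnip.

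The AP-1 subunits divided. Of 13 subunit genes other than Fos, 11 had enough counts, and 5 were higher in both libraries: Fosb, Jun, Junb, Jund and Atf3. Over all genes 1.91% were higher in both. Members of this list and of the lists below were chosen with earlier results of these data known. Their counts beside those of all genes are therefore descriptions and not independent support. Fosb, a close relative of Fos, stood at 372 CPM in Fos-high against 63.3 CPM in Fos-low cells of the late library (5.87-fold, interval 5.39 to 6.41), and at 551 against 65.6 CPM in the early library (8.40-fold, 7.74 to 9.12). Jun, the main partner of Fos, stood at 1745 against 607 CPM in the late library (2.88-fold, 2.78 to 2.98) and 2603 against 768 CPM in the early library (3.39-fold, 3.29 to 3.49). Junb was 3.1-fold higher late and 3.64-fold higher early, and Jund, the subunit best known for steady expression, 1.77-fold and 1.94-fold. Atf3, a stress-induced member that can repress its targets, stood at 65.8 against 16.5 CPM late (3.99-fold, 3.28 to 4.84) and 179 against 26.4 CPM early (6.79-fold, 5.93 to 7.78). The other 6 did not reach 1.5-fold higher: Fosl2 lay at 1.22-fold late and 1.33-fold early, the small Maf genes Maff, Mafg and Mafk between 0.942-fold and 1.30-fold, and Batf at 0.959-fold and 0.926-fold. Jdp2 stood at 9.57 against 9.58 CPM in the late library, and was 0.539-fold in the early library (interval 0.297 to 0.917). The median log2 ratio of the 11 was 0.36 late and 0.41 early, beside 0.06 and 0.03 over all genes compared.

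Other early response transcription factors were higher in 10 of 16 in the late library and 13 of 16 in the early library, and lower in 0. Over all genes compared, 8.01% were higher late and 6.09% early. Egr1, a zinc finger factor induced by growth signals, stood at 456 CPM in Fos-high against 78.7 CPM in Fos-low cells of the late library (5.80-fold, 5.36 to 6.27), and at 588 against 55.4 CPM in the early library (10.6-fold, 9.74 to 11.6). Among Krüppel-like factors, Klf4 was 5.97-fold higher late and 7.77-fold higher early, Klf2 5.58-fold and 6.45-fold, and Klf6 3.40-fold and 4.44-fold. Ier2 was 2.84-fold higher late and 3.26-fold higher early. Nr4a1, an orphan nuclear receptor with 4 copies of TGACG in the window printed above, stood at 109 against 46.2 CPM late and 107 against 47.3 CPM early. Srf, the factor that binds CArG boxes, was 1.22-fold late and 1.27-fold early, short of the cut. The list's median log2 ratio was 1.04 late and 1.10 early.

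Inhibitors that shut down the same signals were higher in 4 of 16 in the late library and 8 of 16 in the early library. The share of all genes higher was 8.01% late and 6.09% early. Dusp1, a phosphatase that turns off stress-activated MAP kinases, stood at 240 CPM in Fos-high against 84.6 CPM in Fos-low cells late (2.84-fold, 2.57 to 3.12) and 414 against 134 CPM early (3.08-fold, 2.87 to 3.31). Socs3, an inhibitor of JAK and STAT signalling, was 2.75-fold higher late and 3.59-fold higher early. Trib1, a pseudokinase, was 2.52-fold and 3.11-fold higher, and Ier3 1.70-fold and 2.65-fold. The ERK feedback genes Spry1, Spry2 and Spred1 lay between 0.953-fold and 1.34-fold. Dusp6, also an ERK phosphatase, was 1.24-fold late and 1.62-fold early, and Nfkbia, the inhibitor of NF-kappa-B, 1.11-fold and 1.63-fold.

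Genes of RNA decay, growth arrest and survival were higher in 5 of 14 in the late library and 12 of 14 in the early library. Among all genes 8.01% were higher late and 6.09% early. Zfp36 encodes tristetraprolin, which binds AU-rich RNAs such as those of Fos and speeds their decay, and it stood at 382 CPM in Fos-high against 167 CPM in Fos-low cells late (2.28-fold) and 379 against 149 CPM early (2.55-fold). Btg2, an antiproliferative gene, stood at 751 against 265 CPM late (2.84-fold) and 865 against 353 CPM early (2.45-fold). Rhob, a small GTPase, was 2.34-fold and 2.90-fold higher, and Ppp1r15a, which restores translation after stress, 2.17-fold and 3.12-fold. Gadd45b was 1.30-fold late (interval 1.07 to 1.55) and 2.17-fold early (1.93 to 2.45). Mcl1 lay at 1.41-fold late and 1.60-fold early.

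Counted per cell, early response genes other than Fos were also higher in Fos-high cells. The sum of the 32 AP-1 and other early response genes, without Fos, had a median of 56.0 UMIs per 10000 in Fos-high against 21.5 in Fos-low cells of the late library, and 82.4 against 26.3 in the early library. Of Fos-high cells, 73.4% late and 76.3% early lay above the 90th percentile of Fos-low cells. Below the Fos-low median lay 8 of 267 late and 16 of 519 early Fos-high cells. At 2000 UMIs per cell, Fos-high cells held a median of 5 of 10 genes (Jun, Junb, Fosb, Atf3, Egr1, Ier2, Zfp36, Dusp1, Btg2 and Nr4a1) and Fos-low cells a median of 2, in both libraries. Without thinning the medians were 8 of 10 against 5 of 10 late, and 8 against 4 early. Egr1 had a UMI in 48.7% of thinned Fos-high against 10.1% of Fos-low cells late, and in 50.8% against 7.99% early. The sum leans on genes of high level such as Jun and Jund (1745 and 1595 CPM in late Fos-high cells). These per-cell counts can follow from each gene being detected more often, and do not show that the genes rise together within a cell.

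**Figure D2:**
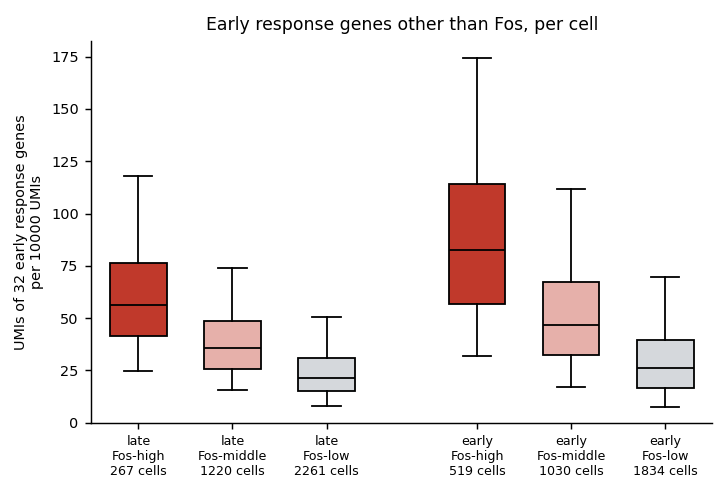
UMIs of 32 early response genes other than Fos per 10000 UMIs of the cell (vertical), by library and Fos class (horizontal, with the number of cells); boxes span the quartiles with the median as a line, and whiskers run to the 5th and 95th percentiles over cells. The Fos-high median is 56.0 late and 82.4 early, against 21.5 and 26.3 in Fos-low cells.

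Across all 3748 late and 3383 early gate cells, the 10 genes whose level was most like that of Fos were Egr1, Jun, Fosb, Junb, Btg2, Jund, Klf6, Ier2, Dusp1 and Zfp36. Likeness was the smaller of the 2 libraries' Pearson correlations across cells, and it ran between 0.25 for Zfp36 and 0.45 for Egr1. Cells of a library share its preparation and depth, and cells are not replicates.

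Over steps of Fos the levels climbed without a visible break at 8 per 10000. In the late library Jun stood at 607, 918, 1162, 1548, 2070 and 2844 CPM in cells with 0 to 2, 2 to 4, 4 to 8, 8 to 12, 12 to 20 and at least 20 Fos UMIs per 10000. In the early library the same steps gave 768, 1259, 1683, 2169, 2861 and 3472 CPM. Egr1 gave 78.7, 172, 261, 399, 565 and 684 CPM late and 55.4, 161, 267, 428, 661 and 981 CPM early. Every step of Jun and Egr1 was above the step before it in both libraries. Sftpb, a surfactant protein gene, gave 6982 CPM in the lowest and 6499 CPM in the highest step late, and 7393 and 6745 CPM early. The highest step held only 14 late and 72 early cells, and Atf3 there rested on 6 counts in the late library.

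**Figure D3:**
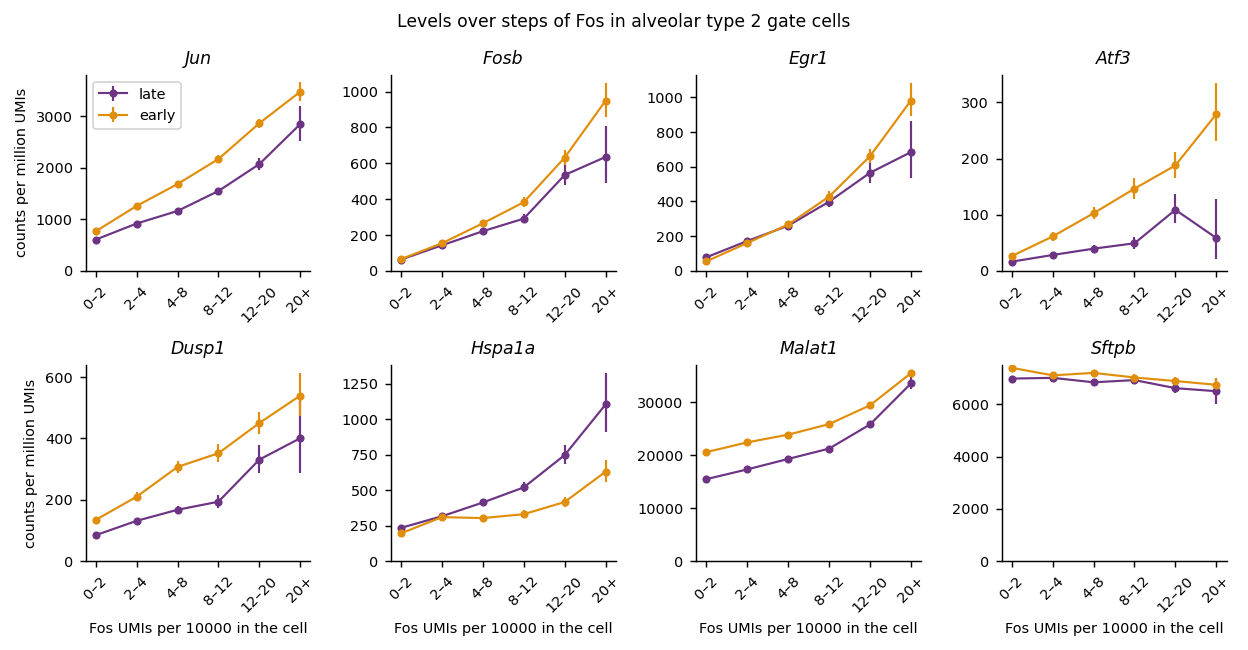
Level of 8 genes (CPM, vertical) in gate cells grouped by Fos UMIs per 10000 (horizontal, low to high), for the late library (purple) and the early library (orange); points are sums over cells and bars 95% Poisson intervals, counting error only. Jun, Fosb, Egr1, Dusp1, Hspa1a and Malat1 are higher in the highest than in the lowest step of both libraries, Atf3 climbs to 279 CPM early and stands at 58.6 CPM in the last late step, and Sftpb stays between 6499 and 7393 CPM.

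Heat shock genes were higher in part. Of 15, 4 were higher in the late library and 5 in the early library, beside 8.01% and 6.09% of all genes. Hspa1a and Hspa1b, inducible HSP70 genes whose near-identical sequences make their split uncertain, were 2.59-fold and 2.44-fold higher late and 2.05-fold and 1.77-fold higher early. Hspb1, a small heat shock protein gene, was 1.75-fold and 1.53-fold higher, and Dnajb4, a co-chaperone gene, 1.82-fold and 1.59-fold. Dnajb1 was 1.47-fold late and 2.46-fold early. The steadily expressed Hspa8 lay at 1.14-fold and 1.05-fold, and Hsp90ab1 at 1.07-fold and 0.997-fold. Of 19 genes of the unfolded protein and integrated stress responses, 0 were higher and 1 (Asns) lower late, and 3 (Atf4, Dnajb9 and Trib3) were higher early.

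Inflammatory and growth factor genes were mixed. Nfkbiz, a nuclear modulator of NF-kappa-B, stood at 38.7 CPM in Fos-high against 8.16 CPM in Fos-low cells late (4.74-fold, 3.63 to 6.16) and 56.7 against 14.4 CPM early (3.93-fold, 3.19 to 4.83). Ptgs2, which makes prostaglandin precursors, stood at 261 against 167 CPM late (1.56-fold) and 130 against 63.6 CPM early (2.05-fold). Cxcl2 was 2.49-fold late and 0.612-fold early, and 43.8% of its 48 late Fos-high counts lay in 1 cell. Of the 14 genes of the NF-kappa-B and inflammatory list compared in each library, 4 were higher and 0 lower late, and 3 higher and 3 lower early. Among all genes 8.01% were higher and 6.16% lower late, and 6.09% and 4.29% early. Hbegf, a membrane-anchored EGF receptor ligand not among the 34 for that share in 1 cell, was 2.10-fold and 2.42-fold higher. Areg, another such ligand, lay at 1.48-fold and 1.18-fold. Cyr61, a matricellular gene, stood at 67.4 against 14.3 CPM late (4.73-fold) and 35.0 against 9.73 CPM early (3.60-fold).

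Of 12 surfactant and lamellar body genes outside the gate, 0 were past 1.5-fold in either direction in either library. Sftpb stood at 6823 CPM in Fos-high against 6982 CPM in Fos-low cells late (0.977-fold, 0.961 to 0.993) and 6935 against 7393 CPM early (0.938-fold, 0.925 to 0.951). Abca3, the lamellar body lipid pump, lay at 1.05-fold and 1.03-fold, and Lyz2 at 0.913-fold and 0.853-fold. Of 10 transcription factors of these cells, 0 were past the cut, with Nkx2-1, the lung lineage factor, at 1.10-fold and 1.12-fold. Likewise 0 of 7 MHC class II genes and 0 of 18 respiratory chain genes were past it, and Cd74, the invariant chain, stood at 2502 against 2500 CPM late and 2335 against 2635 CPM early. Among all genes at 50 CPM or more, 2.29% late and 3% early were higher and 0.102% and 0% lower, so counts of 0 on lists of this size are near that background and nothing particular to these lists is read from them.

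Of 23 lipid synthesis genes, 1 was higher and 0 lower in each library, near the share of all genes higher (8.01% late, 6.09% early). That gene was Chka, choline kinase, the entry to phosphatidylcholine synthesis, at 318 against 167 CPM late (1.90-fold, 1.76 to 2.06) and 382 against 218 CPM early (1.76-fold, 1.64 to 1.87). Scd1, a fatty acid desaturase gene, lay at 0.818-fold late and 0.949-fold early. Of 12 alveolar type 1 genes, 5 were lower in late Fos-high cells (Hopx, Rtkn2, Cav1, Akap5 and Igfbp2) and 2 in early ones (Pdpn and Igfbp2), and 0 were higher, beside 6.16% and 4.29% of all genes lower. Some of these rested on few Fos-high counts: Rtkn2 on 10 and Igfbp2 on 7 late, and Pdpn on 6 and Igfbp2 on 14 early. Pdpn was 1.10-fold in the late library. The list's median log2 ratio was -0.17 late and -0.29 early. Ager, the membrane receptor typical of type 1 cells, lay at 0.883-fold late and 0.896-fold early, and Aqp5, a water channel gene, at 1.03-fold and 0.949-fold, short of the cut. Hopx stood at 48.7 against 92.5 CPM late (0.527-fold, 0.433 to 0.635) and 39.6 against 53.2 CPM early (0.744-fold, 0.615 to 0.895). In barcodes of 1 to 100 UMIs Hopx stood at 245 CPM late and 261 CPM early, above both classes. Of genes of transitional epithelial cells, 2 were higher and 1 lower of 13 late, and 2 higher and 2 lower of 14 early, with median log2 ratios of 0.07 and -0.13. Among them Sfn was 1.98-fold and 2.26-fold higher, while Krt8, the keratin that marks that state, lay at 1.23-fold and 0.961-fold.

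Of 5 RNAs kept in the nucleus, 2 were higher past the cut late (Kcnq1ot1 and Xist) and 0 early. Of all genes 8.01% were higher late and 6.09% early. Malat1 stood at 23027 CPM in Fos-high against 15494 CPM in Fos-low cells late (1.49-fold, 1.47 to 1.5) and 28487 against 20608 CPM early (1.38-fold, 1.37 to 1.39). Neat1, the paraspeckle RNA, lay at 1.37-fold and 1.26-fold, and Kcnq1ot1 at 1.97-fold and 1.41-fold. Scgb1a1, the club cell secretory gene, stood at 4252 CPM in late Fos-high against 2273 CPM in late Fos-low cells, and 44.1% of its Fos-high counts lay in 1 cell. Without that cell it was 2376 CPM.

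**Figure D4:**
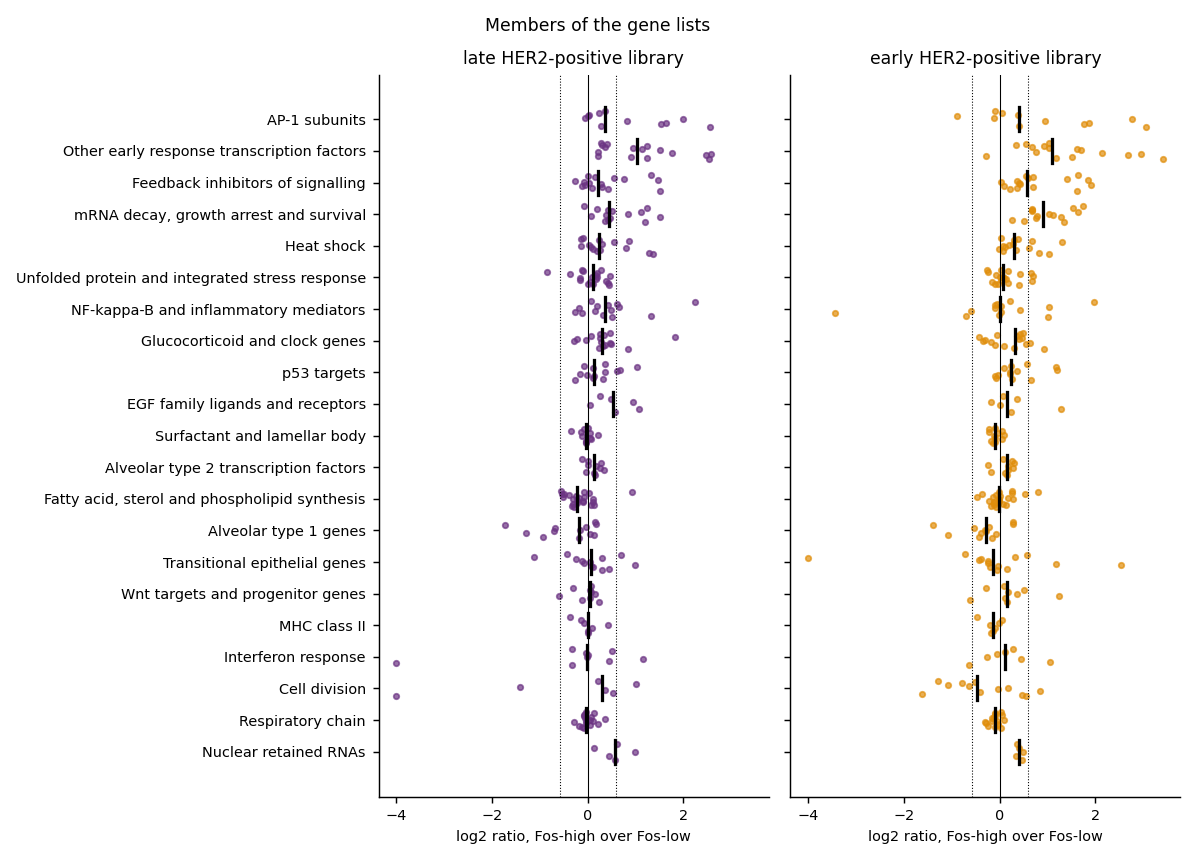
Log2 ratio of Fos-high over Fos-low cells (horizontal) for each gene with at least 20 counts on 21 lists (vertical), in the late library (left) and the early library (right); dots are genes, with ratios beyond 4 drawn at 4, thick bars are list medians and dotted lines mark 1.5-fold. Medians lie at 1.04 late and 1.10 early for the other early response transcription factors, and at -0.03 and -0.10 for surfactant and lamellar body genes. List members were chosen with earlier results of these data known.

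Set against each other, late and early Fos-high cells differed in several early response genes. Of 9460 genes, 592 (6.26%) were higher and 614 (6.49%) lower in late than in early Fos-high cells, while in Fos-low cells 470 of 11655 (4.03%) were higher and 523 (4.49%) lower. The class is defined by Fos in both libraries, the libraries differ in depth, and stage and library cannot be told apart. Jun stood at 0.670-fold in late over early Fos-high cells, Junb at 0.700-fold and Dusp1 at 0.579-fold, and in Fos-low cells they stood at 0.790-fold, 0.823-fold and 0.629-fold. Among genes at 50 CPM or more in a class of both libraries, the 6 furthest below were Atf3 (0.367-fold, 0.306 to 0.438), Gadd45b (0.433-fold), Ier3 (0.480-fold), Lrg1 (0.491-fold), Ppp1r15a (0.540-fold) and Nfkbia (0.552-fold). In Fos-low cells the same genes stood at 0.624-fold, 0.727-fold, 0.749-fold, 1.07-fold, 0.775-fold and 0.811-fold. With 50 CPM asked only of Fos-high cells of either library, a looser criterion than the naming rule, Pim3 (0.448-fold) and Per1 (0.492-fold) took the places of Ppp1r15a and Nfkbia, and in Fos-low cells Pim3 and Per1 stood at 0.620-fold and 0.521-fold. Lrg1, which encodes a secreted glycoprotein, was 51.6 CPM in Fos-high against 97.8 CPM in Fos-low cells late, but 105 against 91.6 CPM early.

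The 6 furthest above at 50 CPM or more in a class of both libraries were Ptgs2 (2.01-fold, 1.77 to 2.27), Hspa1b (1.83-fold), Areg (1.74-fold), B2m (1.66-fold), Enpep (1.64-fold) and Tomm7 (1.62-fold). Fos-low cells gave 2.62-fold, 1.32-fold, 1.38-fold, 1.68-fold, 1.45-fold and 1.77-fold for the same genes. With the looser criterion they were Snrpf (2.64-fold), Ost4 (2.49-fold), Sdhd (2.19-fold), Ptgs2, Cyr61 (1.93-fold, 1.51 to 2.45) and Usmg5 (1.91-fold). Leaving out Ptgs2, Fos-low cells gave 2.24-fold, 2.55-fold, 1.95-fold, 1.47-fold and 1.55-fold for these. For Snrpf, Ost4 and Sdhd the difference between libraries was thus about as large without high Fos. For Ptgs2 it was larger in Fos-low cells (2.62-fold, 2.43 to 2.84). Hspa1a was 1.51-fold in late over early Fos-high cells, against 1.2-fold in Fos-low cells.

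Late and early cells could also be set side by side at like Fos for Atf3, Jun, Hspa1a and Egr1. In the step of 8 to 12 Fos UMIs per 10000, 182 late and 244 early cells averaged 962 and 969 CPM of Fos. There Atf3 stood at 49.2 CPM late (interval 39.1 to 61.1) and 146 CPM early (129 to 166), and Jun at 1548 and 2169 CPM. Hspa1a ran the other way, at 520 CPM late (485 to 556) and 331 CPM early (304 to 360). Egr1 was 399 CPM late (369 to 431) and 428 CPM early (397 to 461), within counting error of each other, while over all Fos-high cells it was 0.775-fold in late over early.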

How the data were processed

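Single-cell RNA was counted in 3 libraries. Per the labels, they were made with the 10X Chromium 3' v3 kit and sequenced on a NextSeq 550 for 75 cycles, and per the submitters' processing notes the genome build was mm10. The authors deposited raw UMI counts per gene and barcode as unfiltered matrices, whose file headers name software version 3.1.0. They list 6794880 barcodes each and sum to 54961019 UMIs (late), 49248126 (early) and 25610135 (HER2-negative).

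Counts were summed over the cells of each class and divided by the class total (CPM). With 1 library per group no test was possible. Intervals are exact Poisson, exact conditional (ratios) or Clopper-Pearson (shares). Genes named needed 50 CPM in a class of both libraries, 1.5-fold in the same direction in both and no cell with over 10% of a class's counts. Of these the 15 furthest above were named first, and no gene met this for lower. Between late and early Fos-high cells the 6 furthest each way were named at 50 CPM in a class of both libraries with the same single-cell limit. A looser criterion, 50 CPM in Fos-high cells of either library, was also run and named Pim3, Per1, Snrpf, Ost4, Sdhd, Cyr61 and Usmg5, which fall outside that rule. List members and the 10 genes most like Fos were also named. Members and lists were chosen with earlier results of these data known. No doublets were removed in the main analysis. Scrublet (scanpy 1.11.5) by its own threshold marked 53 late (0.882%) and 392 early (5.14%) kept barcodes. Steps were tested on simulated data with known changes. Gene positions were not used beyond the RefSeq windows, and tools were Python 3.11.15, numpy 2.4.6 and scipy 1.17.1.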

Additional observations from a re-analysis of the deposited data

Results flagged for a closer look

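The early HER2-negative library, outside the comparisons above, also held Fos-high cells in the alveolar type 2 gate. They were 7 of 38 gate cells (18.4%, Clopper-Pearson interval 7.74 to 34.3), and are given because this library entered no comparison. Jun stood at 2221 CPM in these 7 cells (interval 1863 to 2627), against 1345 CPM in the 14 Fos-low cells (1119 to 1604). Btg2 (849 against 293 CPM), Ier2 (408 against 130 CPM), Atf3 (294 against 76.0 CPM) and Zfp36 (261 against 65.1 CPM) also had intervals without overlap. Zfp36 rested on 16 and 6 counts and Atf3 on 18 and 7. Junb (457 against 293 CPM) and Fosb (327 against 174 CPM) were higher with overlapping intervals. Egr1 stood at 408 against 184 CPM, with intervals of 264 to 603 and 107 to 295 that overlap. Dusp1 stood at 294 against 217 CPM (174 to 465 and 133 to 335), Nr4a1 at 65.3 against 86.8 CPM (17.8 to 167 and 37.5 to 171) and Ptgs2 at 196 against 217 CPM (101 to 342 and 133 to 335), also with overlapping intervals. The intervals cover counting error only.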

How the results depend on the processing

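No paired analysis was possible because each group was 1 library, and leaving out a replicate was not possible for the same reason. With Fos-high cells taken from 12 per 10000, the Fos-high share was 2.27% late and 8.13% early, with 1746 genes higher and 1478 lower late and 1012 higher early. With classes from 1 draw of 2000 UMIs per cell the shares were 10.96% and 18.8%. With under 10% mitochondrial UMIs the early share was 13.4%. With a minimum of 1 count, 2241 genes were higher and 3416 lower in Fos-high cells late, 2256 and 2674 early, and 1945 and 2630 in late over early Fos-high cells. With a minimum of 100 counts these were 334 and 200 late, 214 and 80 early, and 136 and 85 in late over early. The other 76 values of shares and gene counts stayed within their interval or within 1.5 times.

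The 15 genes named first stayed past 1.5-fold in both libraries under each of the 13 alternatives tried for them, 30 of 30 ratios each time. They were chosen in these same cells for the largest ratios, the last being Rhob at 2.34-fold late. Staying past 1.5-fold was thus largely set by that choice, and is not independent support. The smallest log2 ratio was 0.63, with classes from 2000 UMIs. With each cell's UMIs split at random into 2 parts, classes taken from 1 part and levels from the other, it was 0.97. TMM and median-of-ratios scaling shifted log2 ratios of Fos-high over Fos-low by at most 0.09. The highest-scoring barcodes by Scrublet, left out in 1 alternative, held 4 of the 267 late and 3 of the 519 early Fos-high cells, against 100 of 2261 and 14 of 1834 Fos-low cells. The alternatives gave 546 ratios, of the 15 genes named first and, for late over early, of the genes of the looser criterion. Of these, 450 stayed within their counting interval, and 0 of those past 1.5-fold changed sign. Hspa1b, Areg, B2m, Enpep, Tomm7, Ppp1r15a and Nfkbia, named for late over early under the naming rule only, were not put through the alternatives for that comparison. Depth limits genes of few counts, where 1 cell can carry a difference.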
